A study of Mus musculus with 57 samples.

Results

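The 8 genes described here are the mouse AP-1 subunits of the Fos family (Fos, Fosb, Fosl1 and Fosl2), those of the Jun family (Jun, Junb and Jund), and Atf3, which can pair with Jun proteins. They were chosen by symbol as the AP-1 and Atf3 members, from the probe sets that carry exactly 1 gene symbol, and each had 1 such probe set. They are 8 of the 19302 genes tested. All values are log2 intensities on Affymetrix Mouse Gene 1.0 ST arrays, and a difference of 1 is a doubling.

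The study asked how the cell populations of the mouse kidney respond to ischemia-reperfusion injury (IRI). Ischemia lasted 28 min and was bilateral, by clips on the renal pedicles, and sham surgery left out the clips. Messenger RNA bound to ribosomes was recovered by TRAP (translating ribosome affinity purification), in which antibodies to GFP pull down ribosomes that carry a GFP-tagged L10a protein. All mice were male, and the labels give a mixed C57BL/6 and 129 strain for all groups. In 4 lines the Rosa26-CAGGS-eGFPL10a allele was switched on by a Cre recombinase, each with 3 arrays of IRI at 24 h, 3 of sham at 24 h and 3 of no surgery. The nephron line (six2-CRE) marks descendants of the nephron progenitors. It had 3 further arrays at 4 h after IRI, and its mice were 8 weeks old in both IRI groups and the sham group and 6 weeks old without surgery. There was no sham group at 4 h, so the 4 h arrays were set against sham at 24 h. Early effects of the surgery itself and of time of day therefore cannot be told apart from ischemia at 4 h. The interstitial line (foxd1-CRE) marks stromal descendants, and Foxd1 is also active in podocytes. The endothelial line (cdh5-CRE) marks vascular endothelium, and mice of both lines were 6 weeks old. The myeloid line (lyz2-CRE) is labelled macrophage/monocyte, and Lyz2 is also active in neutrophils. Its mice were 9.5 weeks old with IRI and 7 weeks old with sham or no surgery, so age and injury cannot be told apart there.

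A pair of background sets went through the same pull-down without Cre at 8 weeks of age. The L10a background had 4 IRI and 2 sham arrays. Its labels give the allele as homozygous in one field and as Rosa26-CAGGS-eGFPL10a/+ in another, and describe tag background in podocytes and in some collecting duct cells. The wild-type background had 4 IRI and 2 sham arrays. These mice carry no tag, so their RNA is what sticks to the beads. It is called C57BL/6 in one label field. Whole kidney total RNA, 3 arrays of IRI and 3 of sham, came from littermates of 8 weeks with the allele and no Cre. Median intensities were 105.8 to 128.4 in TRAP arrays and 43.9 to 53.3 in total RNA arrays, so levels were not compared between both kinds. The labels call replicates biological and say no more. The p-values therefore measure the spread between these arrays, and the number of arrays limits the precision.

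AP-1 is a dimer of basic leucine zipper proteins. Jun proteins pair with one another or with Fos proteins, while Fos proteins need a Jun partner, and the dimers bind the DNA word TGACTCA or the related word TGACGTCA. Fos, Fosb, Jun, Junb and Atf3 are immediate early genes: growth factors, stress kinases and calcium switch on their transcription within minutes, and their mRNAs decay fast. Fosl1 and Fosl2 lack the strong activation domains of Fos and Fosb, and Fosl1 itself responds to AP-1. Jund is made constitutively in most cells. In injured kidney tubules, AP-1 and Atf3 are among the earliest genes known to respond.

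RefSeq promoter windows of the GRCm38.p6 build, from 250 bases before to 50 bases after the start site, were at hand for 7 of the 8 genes, all but Fosl1. They are given for Fos and Jun, since both genes moved strongly at 4 h and their windows hold a match to a searched word. The Fos window is chr12:85473640-85473939 on the plus strand and the Jun window is chr4:95052173-95052472 on the minus strand. Capitals mark TATAAA in Fos and TGANNTCA in Jun.
Fos: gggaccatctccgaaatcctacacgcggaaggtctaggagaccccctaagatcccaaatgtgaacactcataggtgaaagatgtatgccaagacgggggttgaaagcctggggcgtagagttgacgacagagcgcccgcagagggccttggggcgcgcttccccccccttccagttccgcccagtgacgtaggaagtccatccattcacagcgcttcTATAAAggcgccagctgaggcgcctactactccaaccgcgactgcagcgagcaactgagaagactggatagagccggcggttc
Jun: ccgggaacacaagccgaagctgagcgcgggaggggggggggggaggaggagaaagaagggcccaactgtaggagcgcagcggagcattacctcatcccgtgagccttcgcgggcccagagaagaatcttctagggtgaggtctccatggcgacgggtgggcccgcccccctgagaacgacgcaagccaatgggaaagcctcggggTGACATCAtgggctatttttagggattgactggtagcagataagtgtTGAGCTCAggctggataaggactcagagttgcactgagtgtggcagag
TATAAA started at offset -33 from the start site of Fos and at offset 0 in Junb, 2 of 7 windows, against 13.6% of 32851 promoter windows of this length. TGANNTCA, a looser form of the TGACGTCA word chosen after TGACGTCA had been searched, was found in Jun as TGACATCA at -45 and TGAGCTCA at 2. It was also found in Jund as TGAAATCA at -61, so in 2 of 7 windows, against 14.1%. The words TGACTCA and TGACGTCA and the CArG box bound by SRF, each searched on both strands, had no match in the 7 windows, against 5.20%, 1.79% and 1.63% of all windows. TGANTCA, also added later, had none either, against 7.81%. These are matches of letters in 1 window per gene. Sites more than 250 bases before the start were not searched, so no match in a window does not mean that the gene lacks the site.

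The labelled populations were checked against markers in mice without surgery, each line against the mean of the other 3 (limma, adjusted p under 0.05). All 4 thick ascending limb and distal tubule markers and 2 of 4 proximal tubule markers were higher in the nephron line, all 4 interstitial markers in the interstitial line, all 4 endothelial markers in the endothelial line and all 4 macrophage markers in the myeloid line. Markers of other types were higher as well: all 4 macrophage and all 3 measured lymphocyte markers in the endothelial line, and 3 of 4 collecting duct and 2 of 3 measured podocyte markers in the myeloid line. All 3 podocyte markers were lower in the nephron line. The 4 neutrophil markers (S100a8, S100a9, Ly6g and Csf3r) were all higher after IRI in interstitial, endothelial, myeloid and wild-type background arrays, and none passed in nephron or L10a background arrays. Their summed intensity was 11398 to 15400 in myeloid IRI against 2274 to 3085 in sham arrays, 8004 to 9040 in endothelial IRI against 1220 to 2655 in sham, and 332 to 448 in nephron IRI at 24 h against 302 to 318 in sham. Other lists moved too. In endothelial IRI all 4 macrophage markers were lower (summed intensity 6389 to 10263 against 14788 to 17254 in sham) and 2 of 3 lymphocyte markers were lower. In interstitial IRI 3 of 4 macrophage markers (1429 to 2274 against 2616 to 3065) and 3 of 4 proximal tubule markers were lower, and in myeloid IRI 3 of 4 proximal tubule and 3 of 4 collecting duct markers were lower. In nephron IRI at 24 h, 2 of 4 endothelial markers were higher (875 to 1167 against 546 to 656 in sham), 1 macrophage marker was higher and 1 lower, and 2 proximal tubule and 2 thick ascending limb and distal tubule markers were lower. At 4 h, 1 endothelial marker was higher in the nephron line (799.5 to 898.6). Summed markers differed in the background sets too. In the L10a background, collecting duct markers had 6429.3 to 7565.5 after IRI against 15126.3 to 15260.5 in sham. Endothelial markers there had 11064.5 to 13175.7 against 7967.5 to 8309.9 in sham. In the wild-type background, proximal tubule markers had 21554.7 to 25089.0 after IRI against 34097.0 to 34278.6 in sham. The part of these markers in the results below was not tested. Fewer cells of a type and less RNA per cell cannot be told apart in these bulk samples. Arrays of a group correlated at 0.978 or above except in total RNA IRI (lowest 0.907).

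In nephron arrays all 8 genes were higher 4 h after IRI than in sham (limma, adjusted p under 0.05 over 19244 genes), in a comparison in which 7.53% of all genes were called higher. Fosb and Fos rose most, 41.9-fold and 32.5-fold, followed by Atf3 (25.3-fold). At 24 h, 7 of the 8 were higher than in sham, against 13.9% of all genes, but the order had changed: Fosl1 led with 13.9-fold and Fos was 2.02-fold higher. Both comparisons use the same 3 sham arrays. The background sets were measured at 24 h only, so the part of untagged RNA in the 4 h rises was not tested. The sample numbers of the 4 h arrays do not follow on from those of the other arrays, and whether all were processed together is not given. Any difference between array sets cannot be told apart from time after IRI in the 4 h comparisons.

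Fos, the founding Fos subunit, had 11.49, 11.33 and 11.31 at 4 h and 7.58, 7.45 and 7.07 at 24 h after IRI, against 6.30, 6.26 and 6.50 in sham nephron arrays. The 3 groups did not overlap, and the 24 h arrays lay far nearer to sham than to 4 h. The log2 change over sham was 5.02 ± 0.21 (SE) at 4 h, adjusted p 2.4e-18, and 1.01 ± 0.21 at 24 h, adjusted p 2.5e-04. Fosb, a neuronal and stress-induced Fos relative, had 12.77, 12.62 and 12.53 at 4 h and 8.89, 8.69 and 7.80 at 24 h, against 7.22, 7.16 and 7.38 in sham. Its 24 h arrays were spread more widely than those of the other groups, with replicate 3 lowest, and all were above sham. Its change was 5.39 ± 0.32 at 4 h (adjusted p 3.4e-14) and 1.21 ± 0.32 at 24 h (adjusted p 0.0037).

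Fosl1, which encodes Fra-1, ran the other way in time. Nephron arrays had 10.09, 10.49 and 9.93 at 4 h and 11.48, 11.28 and 11.24 at 24 h, against 7.49, 7.59 and 7.51 in sham. Every 24 h array was above every 4 h array, and both groups were above sham. Fosl1 rose by 2.64 ± 0.22 at 4 h (adjusted p 5.4e-11) and by 3.80 ± 0.22 at 24 h (adjusted p 9.0e-15). Fosl2, which encodes Fra-2, had 10.22, 10.41 and 10.11 at 4 h and 10.57, 10.35 and 10.21 at 24 h, against 8.94, 9.00 and 9.14 in sham. The IRI groups overlapped each other and neither overlapped sham. Its change was 1.22 ± 0.15 at 4 h (adjusted p 1.6e-07) and 1.35 ± 0.15 at 24 h (adjusted p 1.0e-08).

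Of the Jun family, Jun had the highest change at 4 h and Junb at 24 h. Jun, the partner of most Fos proteins, had 12.89, 12.68 and 12.82 at 4 h and 11.12, 11.14 and 10.91 at 24 h after IRI, against 9.99, 10.16 and 10.48 in sham nephron arrays. Its groups did not overlap, and its log2 change was 2.59 ± 0.14 at 4 h (adjusted p 6.7e-15) and 0.85 ± 0.14 at 24 h (adjusted p 1.8e-05). Junb, which can oppose Jun at some genes, had 10.29, 10.25 and 10.25 at 4 h and 9.56, 9.16 and 9.15 at 24 h, against 8.24, 8.18 and 8.42 in sham. The 4 h arrays were nearly alike, and the groups did not overlap. Junb rose by 1.98 ± 0.15 at 4 h (adjusted p 1.5e-11) and by 1.01 ± 0.15 at 24 h (adjusted p 3.5e-06). Jund, the constitutive subunit, had 12.13, 12.25 and 12.17 at 4 h and 11.40, 11.29 and 11.32 at 24 h, against 10.84, 11.09 and 11.02 in sham. It rose by 1.20 ± 0.21 at 4 h (adjusted p 6.0e-05). Its 24 h difference of 0.35 ± 0.21 missed the threshold (adjusted p 0.23), though the groups did not overlap. The same difference passed with adjusted p 0.0070 when the total RNA arrays were left out of the fit and 0.010 with only the groups compared in it.

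Atf3, a stress-induced factor that often represses its targets, had 13.04, 13.01 and 13.03 at 4 h and 10.98, 11.03 and 10.32 at 24 h after IRI, against 8.11, 8.54 and 8.44 in sham nephron arrays. The 4 h arrays were nearly alike and lay far above both other groups. Atf3 rose by 4.66 ± 0.22 at 4 h (adjusted p 8.1e-17) and by 2.42 ± 0.22 at 24 h (adjusted p 2.6e-10).

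**Figure D1:**
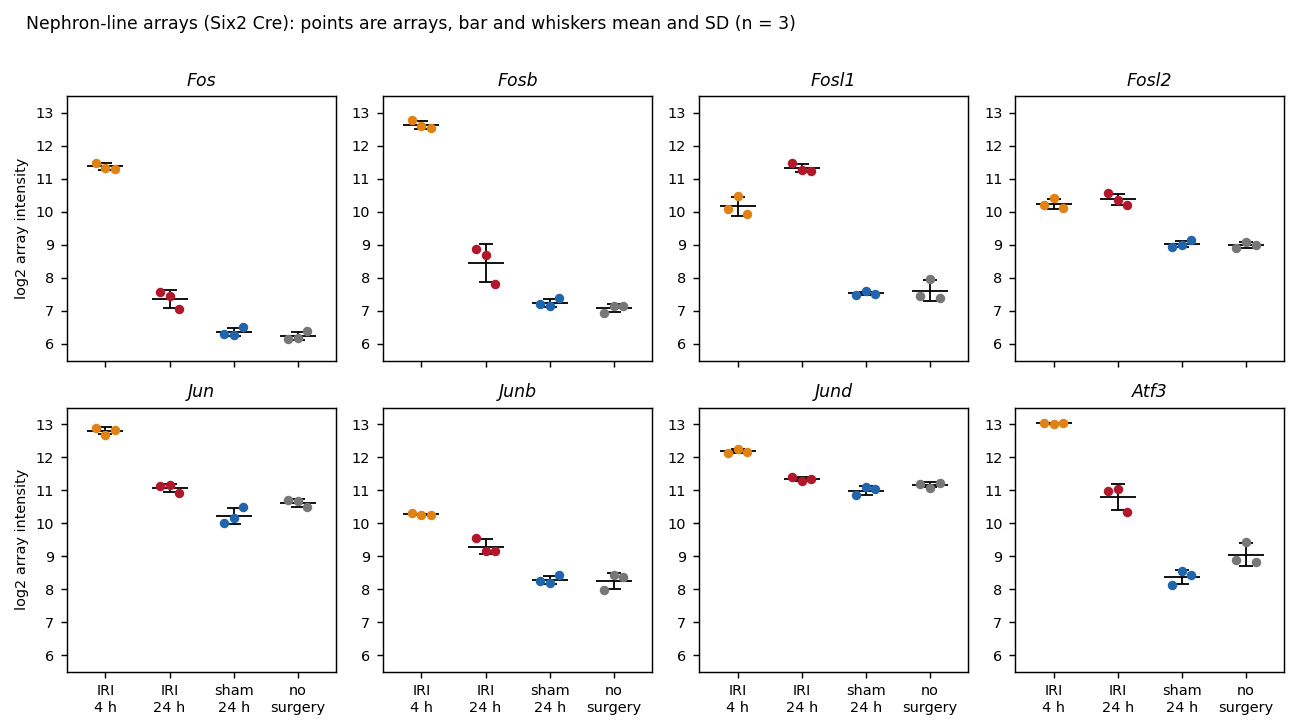
Log2 array intensity of the 8 genes in nephron-line arrays 4 h and 24 h after IRI, after sham surgery and without surgery. Points are arrays, and the bar with whiskers is the mean and SD of 3 arrays. In 6 panels the 4 h arrays stand highest, in the Fosl1 panel the 24 h arrays do, and in the Fosl2 panel both IRI groups overlap.

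Set directly against each other, 24 h after IRI 6 of the 8 genes were lower than at 4 h in nephron arrays (12.8% of all genes were called lower) and Fosl1 alone of the 8 was higher (14.9% of all genes were called higher). Fosb fell by 4.18 ± 0.32 on the log2 scale (adjusted p 1.0e-11), which is 18.1-fold, and Fos fell by 4.01 ± 0.21 (adjusted p 1.2e-15). Atf3 fell by 2.25 ± 0.22 and Jun fell by 1.74 ± 0.14. Junb dropped by 0.97 ± 0.15 and Jund dropped by 0.85 ± 0.21 (adjusted p 0.0019). Fosl1 rose by 1.16 ± 0.22 (adjusted p 8.1e-05). The Fosl2 difference was 0.13 ± 0.15 (adjusted p 0.61). None of these calls changed under the alternatives tried.

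Sham surgery at 24 h was set against no surgery in each Cre line, and none of the 8 genes was called in any of the 4 lines (limma). Sham surgery at 4 h was not measured. Of all genes, 1.62% were called in the nephron line, 10.3% in the interstitial, 0.738% in the endothelial and 1.68% in the myeloid line. At an unadjusted p under 0.05 the counts of the 8 were 2, 0, 1 and 1 in those lines, and the single gene was Fosl2 in both the endothelial (-0.39 ± 0.15) and the myeloid line (0.31 ± 0.15). The 2 in the nephron line were Jun and Atf3. Jun had 9.99, 10.16 and 10.48 in sham and 10.71, 10.67 and 10.48 without surgery, and Atf3 had 8.11, 8.54 and 8.44 in sham and 8.88, 9.44 and 8.82 without surgery. Sham lay at or below no surgery, with differences of -0.41 ± 0.14 for Jun and -0.68 ± 0.22 for Atf3 (adjusted p 0.17 and 0.13). When the total RNA arrays were left out of the fit, these 2 were called lower in sham (adjusted p 0.048 and 0.037). The nephron mice without surgery were 2 weeks younger, so age and surgery cannot be told apart.

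At 24 h the other lines showed a common core and clear exceptions. In interstitial arrays 7 of the 8 genes were higher after IRI than in sham (19.3% of all genes were called higher), in endothelial arrays 7 of 8 (21.5%) and in myeloid arrays 4 of 8 (13.1%). Fosl1, Fosl2, Fos and Junb passed in each of the 4 lines. They also passed in both background sets without Cre, given below, so this core is not particular to the tagged populations. None of the 8 was called lower in any line, against 14.7% of all genes in nephron, 20% in interstitial, 21.7% in endothelial and 14.8% in myeloid arrays, although Jun was called lower in myeloid arrays (adjusted p 0.011) with only the groups compared in the fit.

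Fosl1 had 11.27, 11.43 and 11.62 in interstitial IRI against 7.15, 7.54 and 7.36 in sham. It had 10.77, 11.08 and 10.95 in endothelial IRI against 7.24, 6.96 and 7.34 in sham, and 9.83, 9.51 and 9.87 in myeloid IRI against 7.28, 7.14 and 6.83 in sham. All IRI arrays stood more than 2 log2 units above all sham arrays of their line. The change was 4.09 ± 0.22 in interstitial (adjusted p 2.0e-15), 3.75 ± 0.22 in endothelial (adjusted p 2.3e-15) and 2.65 ± 0.22 in myeloid arrays (adjusted p 1.2e-11).

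Fos had 7.96, 8.19 and 8.59 in interstitial IRI against 6.50, 6.44 and 6.61 in sham. It reached 9.98, 10.34 and 10.23 in endothelial IRI against 6.99, 6.60 and 6.93 in sham, and 10.70, 10.20 and 10.69 in myeloid IRI against 7.62, 7.35 and 7.30 in sham. Endothelial and myeloid arrays were thus above those of the nephron line at the same time by over 2 log2 units. The change was 1.73 ± 0.21 in interstitial (adjusted p 3.0e-08), 3.34 ± 0.21 in endothelial (adjusted p 1.1e-14) and 3.11 ± 0.21 in myeloid arrays (adjusted p 7.9e-14).

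Fosb parted from Fos in the myeloid line. Myeloid IRI arrays had 7.95, 7.47 and 7.99 against 6.98, 7.08 and 7.18 in sham, a difference of 0.72 ± 0.32 that missed the threshold (adjusted p 0.094) though the groups did not overlap. It passed with adjusted p 0.010 when the total RNA arrays were left out of the fit and 0.049 after median centring, which moves the median of all genes by 0.117 in this comparison. Endothelial IRI arrays had 10.40, 10.59 and 10.28 against 7.05, 6.91 and 6.96 in sham, and interstitial IRI arrays had 8.56, 9.17 and 9.98 against 6.99, 7.09 and 6.98 in sham. Fosb rose by 3.45 ± 0.32 in endothelial (adjusted p 1.1e-10) and by 2.22 ± 0.32 in interstitial arrays (adjusted p 9.1e-07). Fosl2 rose by 2.28 ± 0.15 in myeloid, 2.16 ± 0.15 in endothelial and 1.56 ± 0.15 in interstitial arrays, and no IRI array overlapped sham in these lines.

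Jun was high in the endothelial and myeloid lines whatever the surgery. Endothelial arrays had 11.76, 11.94 and 11.85 after IRI against 11.76, 11.52 and 11.46 in sham, a difference of 0.27 ± 0.14 (adjusted p 0.13). Under median centring, which moves the median of all genes by 0.181 in this comparison, it was 0.45 (adjusted p 0.0075), and with only the groups compared in the fit adjusted p was 0.046. Myeloid arrays had 11.32, 11.33 and 11.20 after IRI against 11.51, 11.58 and 11.61 in sham, so all IRI arrays were below all sham arrays (difference -0.28 ± 0.14, adjusted p 0.15). In interstitial arrays Jun had 10.80, 10.82 and 11.25 after IRI against 9.95, 9.97 and 9.93 in sham, and it rose by 1.01 ± 0.14 (adjusted p 6.9e-07). Junb rose in all 3 lines, by 1.46 ± 0.15 in endothelial, 1.05 ± 0.15 in myeloid and 1.02 ± 0.15 in interstitial arrays. Jund rose in endothelial arrays, which had 11.70, 11.57 and 11.62 after IRI against 10.94, 10.97 and 10.89 in sham (0.70 ± 0.21, adjusted p 0.0069). Its differences were 0.25 ± 0.21 in interstitial (adjusted p 0.36) and 0.20 ± 0.21 in myeloid arrays (adjusted p 0.55), where IRI and sham arrays overlapped. Without the total RNA arrays in the fit the interstitial difference passed (adjusted p 0.047).

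Atf3 differed most clearly between the lines. Myeloid arrays had 10.25, 9.69 and 10.24 after IRI against 10.59, 10.22 and 10.45 in sham, overlapping groups with a difference of -0.36 ± 0.22 (adjusted p 0.25), which was -0.17 without IRI replicate 2, the lowest array (adjusted p 0.69). Endothelial arrays had 12.17, 12.36 and 12.19 after IRI against 9.86, 9.87 and 10.12 in sham, and interstitial arrays had 9.88, 10.20 and 10.70 after IRI against 8.40, 8.15 and 8.07 in sham. Atf3 rose by 2.29 ± 0.22 in endothelial (adjusted p 2.4e-10) and by 2.06 ± 0.22 in interstitial arrays (adjusted p 3.8e-09).

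**Figure D2:**
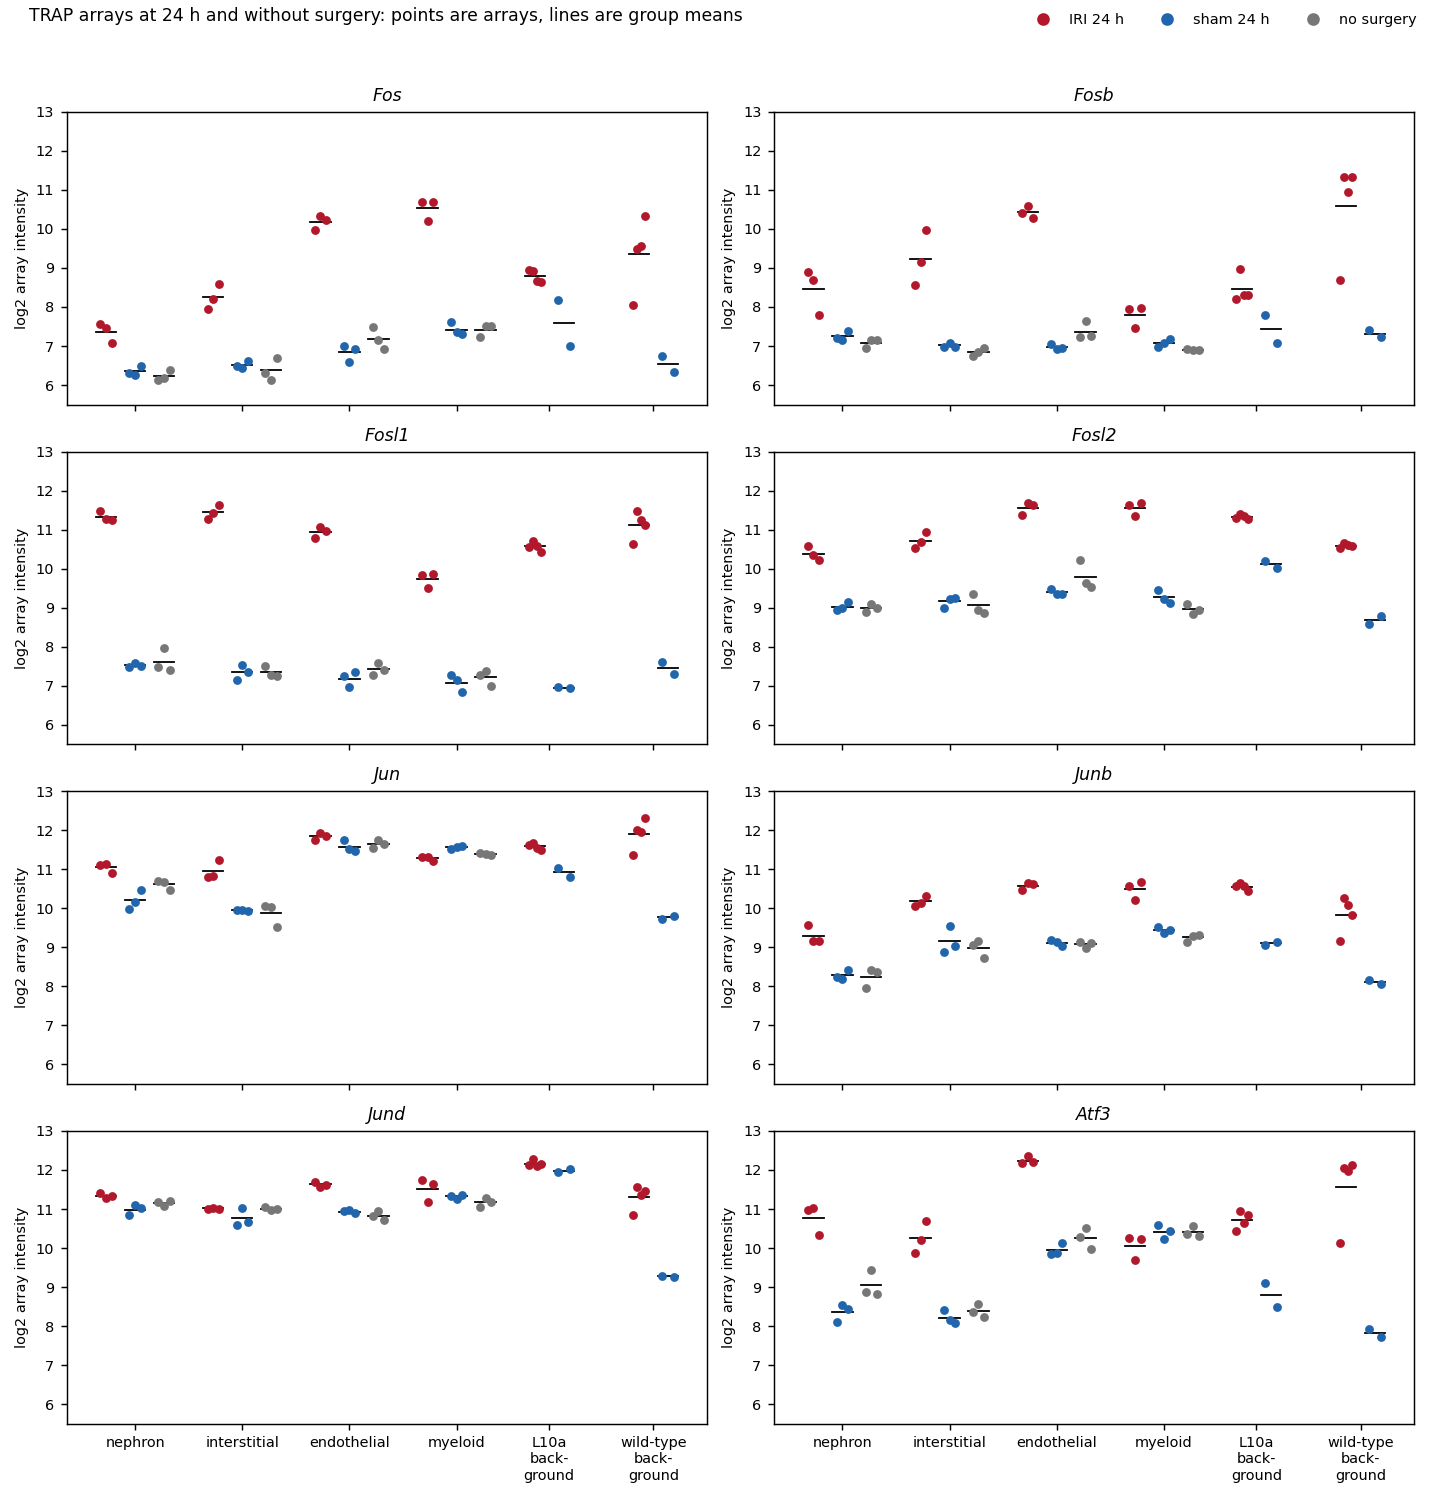
Log2 array intensity of the 8 genes in every TRAP array at 24 h and without surgery, by line or background set. Points are arrays and lines are group means. In the myeloid line all Jun arrays after IRI lie below sham, a difference not called in the main fit, and Atf3 overlaps sham. Replicate 1 of wild-type background IRI lies lowest of its group in all 8 panels.

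The IRI responses of the 4 lines, each its IRI minus its sham level at 24 h, differed among lines for 6 of the 8 genes in a moderated F test (limma), in which 46.6% of all genes were called. Junb (adjusted p 0.19) and Jund (adjusted p 0.42) were not called. Set against the mean response of the other 3 lines, the myeloid response was lower for 4 of the 8 genes (9.14% of all genes) and higher for 2 (9.34%). The difference in response was -2.62 ± 0.25 for Atf3 (adjusted p 2.1e-09), -1.57 ± 0.37 for Fosb, -1.23 ± 0.25 for Fosl1 and -0.99 ± 0.17 for Jun. Its Fos response was higher by 1.08 ± 0.24 and that of Fosl2 by 0.59 ± 0.17. The Fosl2 difference no longer passed without myeloid IRI replicate 3 (0.53, adjusted p 0.052) or without myeloid sham replicate 3 (0.52, adjusted p 0.057).

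The nephron response at 24 h was lower than the mean of the other 3 lines for Fos (-1.72 ± 0.24, adjusted p 2.3e-06) and Fosl2 (-0.65 ± 0.17), with 11.4% of all genes lower. It was higher for Atf3 (1.09 ± 0.25, adjusted p 0.0018) and Jun (0.51 ± 0.17, adjusted p 0.022), with 11.9% of all genes higher. Jun no longer passed without nephron IRI replicate 1 (0.48, adjusted p 0.058), IRI replicate 2 (0.47, adjusted p 0.070), sham replicate 1 (0.40, adjusted p 0.11) or sham replicate 2 (0.49, adjusted p 0.054), or after median centring (0.40, adjusted p 0.057), which moves the median of all genes by -0.114 there. The endothelial response was higher for 3 of the 8 genes, against 14% of all genes: Fosb (2.07 ± 0.37), Fos (1.39 ± 0.24) and Atf3 (0.92 ± 0.25). The interstitial response was higher for Jun (0.73 ± 0.17, adjusted p 0.0019; 7.78% of all genes higher) and lower for Fos (-0.75 ± 0.24, adjusted p 0.027; 8.14% lower). The Fos difference did not pass without interstitial IRI replicate 1 (-0.61, adjusted p 0.12), IRI replicate 2 (-0.73, adjusted p 0.063) or sham replicate 3 (-0.71, adjusted p 0.075), or with all 57 arrays in the fit (adjusted p 0.14).

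In pairs of lines, a set of contrasts added after results were seen, none of the 8 responses differed between nephron and interstitial arrays (12.7% of all genes did). At an unadjusted p under 0.05 there were 2, Fos (-0.72 ± 0.29, adjusted p 0.099) and Fosb (-1.01 ± 0.45, adjusted p 0.13). The Atf3 response was larger by 2.78 ± 0.31 in nephron than in myeloid arrays (18.3% of all genes differed in that pair), by 2.42 ± 0.31 in interstitial than in myeloid arrays (20.4%) and by 2.65 ± 0.31 in endothelial than in myeloid arrays (22.1%). No Atf3 pair without the myeloid line passed. The nephron response was 0.12 ± 0.31 above the endothelial (adjusted p 0.78) and 0.36 ± 0.31 above the interstitial (adjusted p 0.45). The interstitial response was -0.24 ± 0.31 relative to the endothelial (adjusted p 0.68). The higher nephron and endothelial Atf3 calls above were against means that include the low myeloid response. The Fos response was -2.33 ± 0.29 in nephron relative to endothelial arrays (33.3%) and -2.10 ± 0.29 relative to myeloid arrays. Between endothelial and myeloid arrays the Fos response differed by 0.24 ± 0.29 (adjusted p 0.60) while that of Fosb differed by 2.73 ± 0.45 (adjusted p 3.6e-05).

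**Figure D3:**
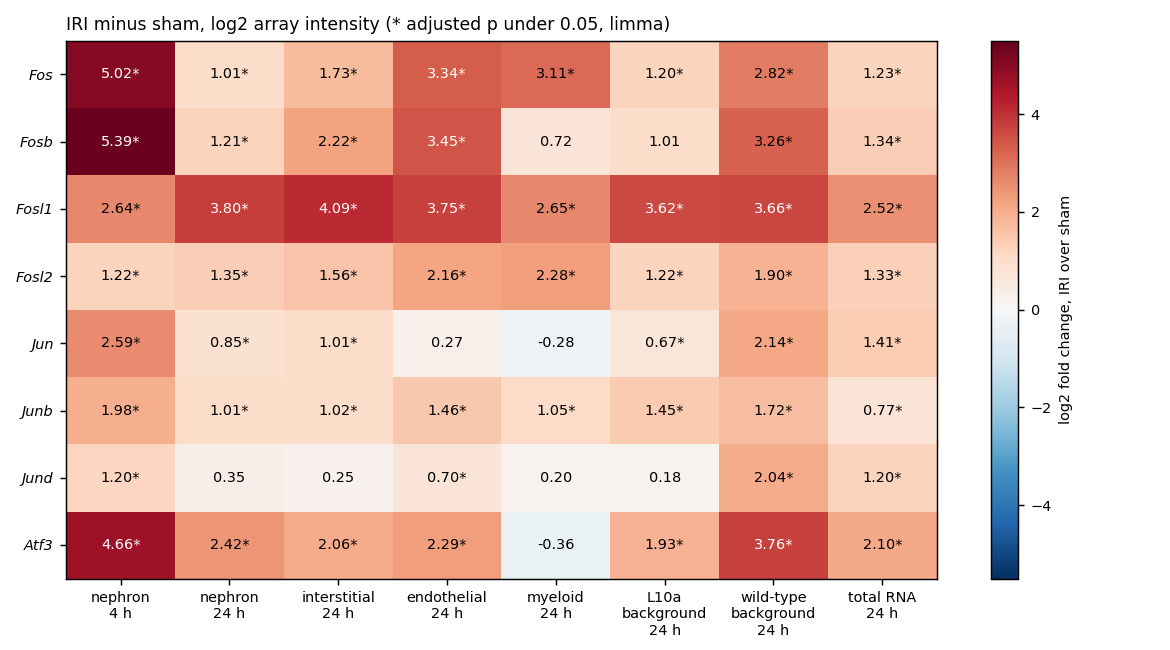
Log2 fold change of IRI over sham for the 8 genes (rows) in each line, background set and total RNA (columns). Red cells are higher after IRI, an asterisk marks an adjusted p under 0.05 in limma, and both nephron columns share their sham arrays. The nephron 4 h column holds the highest values for Fos, Fosb, Jun, Junb and Atf3, and the 2 cells below 0 are Jun and Atf3 in the myeloid column.

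Mice without surgery already differed in these genes between lines, each set against the mean of the other 3. The endothelial line was higher for Jun (1.01 ± 0.12), Atf3 (0.98 ± 0.18), Fosl2 (0.78 ± 0.12) and Fos (0.51 ± 0.17), 4 of 8 against 20.9% of all genes. The myeloid line was higher for Atf3 (1.18 ± 0.18), Fos (0.81 ± 0.17), Jun (0.68 ± 0.12) and Junb (0.48 ± 0.13), 4 of 8 against 16.9%, and lower for Fosl2 (-0.32 ± 0.12), 1 of 8 against 20.9%. The interstitial line was lower for Atf3 (-1.52 ± 0.18), Jun (-1.35 ± 0.12) and Fos (-0.57 ± 0.17), 3 of 8 against 19.6%. The nephron line was lower for Junb (-0.86 ± 0.13), Fos (-0.76 ± 0.17), Atf3 (-0.64 ± 0.18) and Jun (-0.35 ± 0.12), 4 of 8 against 22.1%. Atf3 arrays ran from 8.24 to 8.56 in the interstitial, 8.82 to 9.44 in the nephron, 9.98 to 10.51 in the endothelial and 10.31 to 10.57 in the myeloid line. The myeloid and endothelial lines thus overlapped and stood above both others. Mice without surgery were 6 weeks old in 3 lines and 7 weeks old in the myeloid line.

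Some of these resting differences rested on 1 library or setting. The myeloid Fosl2 call ended without endothelial replicate 1 (-0.25), interstitial replicate 1 (-0.27), myeloid replicate 2 (-0.26), myeloid replicate 3 (-0.31) or nephron replicate 2 (-0.31), with adjusted p 0.051 to 0.18. The endothelial Fos call ended without endothelial replicate 1 (0.37, adjusted p 0.16), the interstitial Fos call without interstitial replicate 2 (-0.45, adjusted p 0.089), and the nephron Jun call without nephron replicate 3 (-0.28, adjusted p 0.097). With all 57 arrays in the fit, the endothelial and interstitial Fos calls ended as well (adjusted p 0.098 and 0.074). Median centring, which moves the median of all genes by 0.194 in the nephron comparison, left Jun at -0.16 (adjusted p 0.22) and put Fosl1 at 0.48 (adjusted p 0.016).

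These genes also rose in the background sets. In wild-type background arrays, which hold untagged RNA, all 8 genes were higher after IRI than in sham (20.2% of all genes), and in the L10a background 6 of 8 were (19%). Wild-type background Atf3 had 10.14, 12.05, 11.97 and 12.13 after IRI against 7.91 and 7.71 in sham, a rise of 3.76 ± 0.32 (adjusted p 8.7e-13). Fosb had 8.70, 11.33, 10.95 and 11.32 after IRI against 7.41 and 7.22 in sham, and Fos had 8.06, 9.50, 9.56 and 10.33 after IRI against 6.75 and 6.33 in sham. Replicate 1 lay well below the other IRI arrays in all 3 genes and above sham. Fosb rose by 3.26 ± 0.44 and Fos by 2.82 ± 0.32. Jund had 10.85, 11.56, 11.36 and 11.46 after IRI against 9.28 and 9.26 in sham (2.04 ± 0.21), and these 2 sham arrays were the lowest of all TRAP arrays for Jund. Fosl1 rose by 3.66 ± 0.23, Jun by 2.14 ± 0.17, Fosl2 by 1.90 ± 0.14 and Junb by 1.72 ± 0.19.

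In the L10a background, Fosl1 rose by 3.62 ± 0.23, Atf3 by 1.93 ± 0.32, Junb by 1.45 ± 0.19, Fosl2 by 1.22 ± 0.14 and Jun by 0.67 ± 0.17. Fos had 8.96, 8.92, 8.66 and 8.63 after IRI against 8.18 and 7.00 in sham (1.20 ± 0.32, adjusted p 0.0025), and without sham replicate 2 the difference was 0.61 (adjusted p 0.23). Fosb had 8.21, 8.98, 8.31 and 8.30 after IRI against 7.79 and 7.08 in sham (1.01 ± 0.44, adjusted p 0.063), and without sham replicate 2 the difference was 0.66 (adjusted p 0.37). It passed after median centring (adjusted p 0.030), without the total RNA arrays (0.032) and with only the groups compared in the fit (0.015). Jund differed by 0.18 ± 0.21 (adjusted p 0.51) and was high in both groups, at 12.11 to 12.27 after IRI and 11.96 and 12.01 in sham.

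The level after IRI in each Cre line was then set against that in wild-type background IRI at 24 h. Nephron arrays were higher for 0 of the 8 genes (limma; 25.3% of all genes were higher, and none of the 8 was higher at an unadjusted p under 0.05) and lower for 5 (18.7%). Fos was 3.99-fold lower (SE 0.28 on the log2 scale), and the log2 differences of the others were Fosb -2.12 ± 0.39, Jun -0.85 ± 0.15, Atf3 -0.79 ± 0.28 and Junb -0.54 ± 0.16. Interstitial arrays were higher for 0 (17.8%) and lower for 4 (16.3%): Fosb -1.34 ± 0.39, Atf3 -1.31 ± 0.28, Fos -1.11 ± 0.28 and Jun -0.95 ± 0.15. At an unadjusted p under 0.05 interstitial Junb was higher as well (0.34 ± 0.16, adjusted p 0.11). Endothelial arrays were higher for Fosl2 (0.97 ± 0.13), Fos (0.82 ± 0.28), Junb (0.75 ± 0.16) and Atf3 (0.67 ± 0.28), 4 of 8 against 26.5%. Myeloid arrays were higher for Fos (1.17 ± 0.28), Fosl2 (0.96 ± 0.13) and Junb (0.66 ± 0.16), 3 of 8 against 27.8%, and lower for Fosb (-2.77 ± 0.39), Atf3 (-1.51 ± 0.28), Fosl1 (-1.39 ± 0.20) and Jun (-0.62 ± 0.15), 4 of 8 against 30.4%.

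For Fosl1, nephron, interstitial and endothelial arrays lay between -0.19 and 0.32 of wild-type background IRI and did not pass. TRAP arrays had like median intensities (105.8 to 128.4), so these differences compare array signal and not the amount of RNA recovered. How much of a Cre line's signal for these genes came with untagged RNA was not tested.

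Replicate 1 of wild-type background IRI decided some of these values. Without it, endothelial Fos was at 0.39 (adjusted p 0.18) and endothelial Atf3 at 0.19 (adjusted p 0.49), nephron Atf3 was at -1.27 and still called, and myeloid Fos and Junb were at 0.73 and 0.44 and still called. Endothelial Fos also did not pass without endothelial IRI replicate 2 (0.75, adjusted p 0.057), nor did endothelial Atf3 without endothelial IRI replicate 1 (0.70, adjusted p 0.073), replicate 2 (0.61, adjusted p 0.12) or replicate 3 (0.69, adjusted p 0.078). Nephron Atf3 did not pass without nephron IRI replicate 3 (-0.57, adjusted p 0.15) or wild-type background IRI replicate 2 (-0.64, adjusted p 0.081), replicate 3 (-0.66, adjusted p 0.073) or replicate 4 (-0.61, adjusted p 0.092). Interstitial Fosb did not pass without interstitial IRI replicate 1 (-1.004, adjusted p 0.076).

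**Figure D4:**
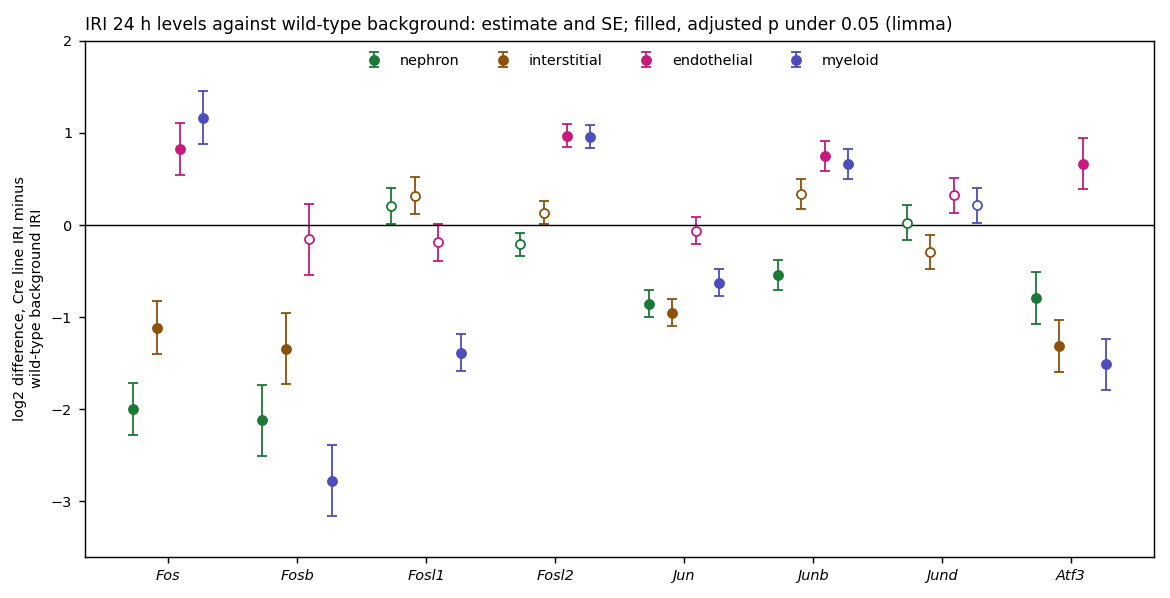
Log2 difference in IRI level at 24 h between each Cre line and wild-type background IRI, for the 8 genes. Points are limma estimates with their SE, filled where adjusted p is under 0.05, and 0 means array intensity equal to that of wild-type background IRI. Nephron and interstitial points lie at 0.34 or lower, while endothelial Fos, Fosl2, Junb and Atf3 and myeloid Fos, Fosl2 and Junb lie above it.

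The nephron response at 24 h was also smaller than the wild-type background response for 7 of the 8 genes (12.6% of all genes were lower), all but Fosl1 (0.14 ± 0.31, adjusted p 0.79). The differences were -2.06 ± 0.60 for Fosb, -1.81 ± 0.44 for Fos, -1.68 ± 0.29 for Jund, -1.34 ± 0.44 for Atf3, -1.30 ± 0.23 for Jun, -0.71 ± 0.25 for Junb and -0.55 ± 0.20 for Fosl2. With only the groups compared in the fit, 3 of them passed. Without wild-type background sham replicate 2, 3 passed, since Fosb (-1.96), Fosl2, Junb and Atf3 (-1.24) did not (adjusted p 0.051 to 0.15). Without nephron IRI replicate 3 or wild-type background IRI replicate 2, 4 passed, since Fosl2, Junb and Atf3 (-1.12 and -1.19) did not. Atf3 also failed without wild-type background IRI replicate 4 (-1.16, adjusted p 0.054). Fosl2 or Junb failed without any 1 of nephron IRI replicate 2, nephron sham replicates 1, 2 or 3, wild-type background IRI replicates 3 or 4, or wild-type background sham replicate 1, and both failed after quantile normalization or median centring. Where they failed, Fosl2 lay between -0.65 and -0.46 and Junb between -0.76 and -0.57.

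In total RNA of whole kidney all 8 genes were higher after IRI than in sham (15.7% of all genes). Atf3 had 7.32, 7.79 and 8.51 after IRI against 5.74, 5.87 and 5.71 in sham, and Fosl1 had 8.03, 9.49 and 8.62 after IRI against 6.30, 5.84 and 6.44 in sham. The SD of the 3 IRI arrays was 0.382 or less for Jun, Junb and Fosl2 and 0.600 to 1.19 for the other 5 genes, against 0.029 to 0.314 in sham. For Fosl2 the SDs were close (0.186 after IRI against 0.151 in sham), and no IRI array overlapped sham for any of the 8. Fosl1 rose by 2.52 ± 0.22, Atf3 by 2.10 ± 0.22, Jun by 1.41 ± 0.14 and Fosl2 by 1.33 ± 0.15. Fosb (1.34), Fos (1.23), Jund (1.20) and Junb (0.77) passed with the pooled spread and not with only the 6 total RNA arrays in the fit (adjusted p 0.24, 0.094, 0.18 and 0.091). Without IRI replicate 3, Fosb was at 0.67 and Jund at 0.79, both still called. Of the 8, the nephron response exceeded that of total RNA for Fosl1 (1.28 ± 0.31, adjusted p 0.018; 1.31% of all genes). That call ended without nephron IRI replicate 1 (1.21, adjusted p 0.052), without total RNA sham replicate 3 (1.16, adjusted p 0.061) and with only the groups compared in the fit (adjusted p 0.35).

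Ordered over the 17 TRAP groups, Fos had the highest group mean in nephron IRI at 4 h (11.38), followed without overlap by myeloid IRI (10.53), whose arrays overlapped those of endothelial IRI (10.18). Nephron IRI at 24 h (7.36) overlapped the neighbouring myeloid no surgery (7.42) and endothelial no surgery (7.19) groups. Fosb (12.64), Jun (12.80), Jund (12.18) and Atf3 (13.03) were highest in nephron IRI at 4 h too, and for Jund these arrays overlapped those of L10a background IRI (12.17). Fosl1 was highest in interstitial IRI (11.44), overlapping nephron IRI at 24 h (11.33). Fosl2 was highest in endothelial IRI (11.56), overlapping myeloid IRI (11.55), and Junb was highest in endothelial IRI (10.58), overlapping L10a background IRI (10.56). The range of group means was widest for Fosb (5.80) and narrowest for Junb (2.46).

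As a description over these 17 group means, which share arrays, normalization and the injury, Pearson's r between the genes was highest for Jun and Atf3 (0.93), Fosl2 and Junb (0.885) and Fos and Junb (0.86). It was lowest for Fosl1 and Jund (0.39). Among 17740 other genes, the patterns most like that of Fosl1 were those of Krt20 (r = 0.98), Dusp5 (0.97) and Sox9 (0.96). Fos was most like Nfil3 (0.91), Csrnp1 (0.90) and Cpeb2 (0.89), and Fosb like Hspa1l (0.91), Gpr3 (0.90) and Gadd45g (0.89). Fosl2 was most like Zswim4 (0.96), Map2k3 and Midn, and Junb like Cebpd, Socs3 and Per1 (0.94, 0.94 and 0.93). Jun and Atf3 shared Ier2 (0.89 with Jun and 0.88 with Atf3) and Dnajb1 (0.88 with Jun and 0.87 with Atf3). Klf6 followed for Jun (0.85) and Rnd3 ranked second for Atf3 (0.88). Jund was most like Pnrc1 (0.90), Ubqln1 (0.89) and Srsf2 (0.88).

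Genes around AP-1 were counted in the nephron line by role, 4 h and then 24 h after IRI, each against sham, where the median log2 change of all genes was -0.05 at 4 h and -0.04 at 24 h. Of all genes, 7.53% were called higher and 10.6% lower at 4 h, and 13.9% higher and 14.7% lower at 24 h. The lists were chosen with earlier results of these data known, so their counts and medians are a description and no independent measure of AP-1 activity. Of 13 measured bZIP partners and relatives, 3 were higher and 2 lower at 4 h and 4 higher at 24 h (list medians -0.07 and 0.14). Maff, a small Maf protein, rose by 3.29 ± 0.31 at 4 h and 1.76 ± 0.31 at 24 h, Mafk by 1.49 ± 0.16 and 0.51 ± 0.16, and Creb5 by 1.25 ± 0.14 and 1.15 ± 0.14. Atf7 (-0.60 ± 0.13) and Creb1 (-0.54 ± 0.17) fell at 4 h. Of 12 measured MAPK pathway kinases, which phosphorylate Jun and Fos proteins or their regulators, 3 were higher and 2 lower at 4 h and 5 higher and 4 lower at 24 h. Map2k3 (0.80 ± 0.12), Mapk8 (0.49 ± 0.13) and Map2k1 (0.30 ± 0.10) rose at 4 h, and at 24 h Map2k6 fell by 1.70 ± 0.15 and Mapk10 fell by 0.95 ± 0.16. The list median was -0.14 at 4 h and 0.07 at 24 h.

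The dual specificity phosphatases, which switch MAPKs off, moved most widely of these lists at 4 h: 8 of 11 were higher and 1 lower, with a median of 1.305, and at 24 h 5 were higher and 1 lower (median 0.43). Dusp10 rose by 2.48 ± 0.18 at 4 h and 2.11 ± 0.18 at 24 h, Dusp8 by 2.28 ± 0.17 and 0.77 ± 0.17, and Dusp5 by 1.98 ± 0.19 and 2.06 ± 0.19. Dusp9 fell at both times (-0.59 ± 0.13 and -0.85 ± 0.13). Of SRF and its 5 cofactors, Elk1 fell at 4 h (-0.79 ± 0.13) and none rose, while at 24 h Elk3 (1.17 ± 0.17), Mrtfa (0.78 ± 0.17) and Elk4 (0.36 ± 0.12) rose. The medians were -0.25 at 4 h and 0.42 at 24 h.

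Of 10 genes of AU-rich element mRNA decay, which shortens the life of Fos and other early mRNAs, 5 rose at each time and none fell (medians 0.43 and 0.41). Btg2, which recruits deadenylases, rose by 2.49 ± 0.15 at 4 h and 1.91 ± 0.15 at 24 h, and Zfp36, which binds AU-rich elements, by 1.73 ± 0.20 and 0.52 ± 0.20. Of 7 measured genes of Jun and Fos protein turnover, Csnk1e rose (1.07 ± 0.13 and 1.18 ± 0.13) at both times, Det1 fell at 4 h (-0.83 ± 0.20) and Usp28 rose at 24 h (0.39 ± 0.11), with medians of 0.09 and -0.12. Of 18 measured textbook AP-1 targets, 6 were higher and none lower at 4 h (median 0.54), and 11 were higher and 1 lower at 24 h (median 1.21). Hbegf, an EGF receptor ligand, rose by 3.02 ± 0.27 at 4 h and 1.01 ± 0.27 at 24 h, and Krt18, a keratin, by 1.96 ± 0.19 and 1.80 ± 0.19. Plaur, the urokinase receptor, rose by 1.89 ± 0.22 at 4 h and 3.83 ± 0.22 at 24 h. Timp1 (2.92 ± 0.35) and Mmp10 (2.74 ± 0.13) rose at 24 h, and Vegfa was lower then (-0.48 ± 0.15).

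**Figure D5:**
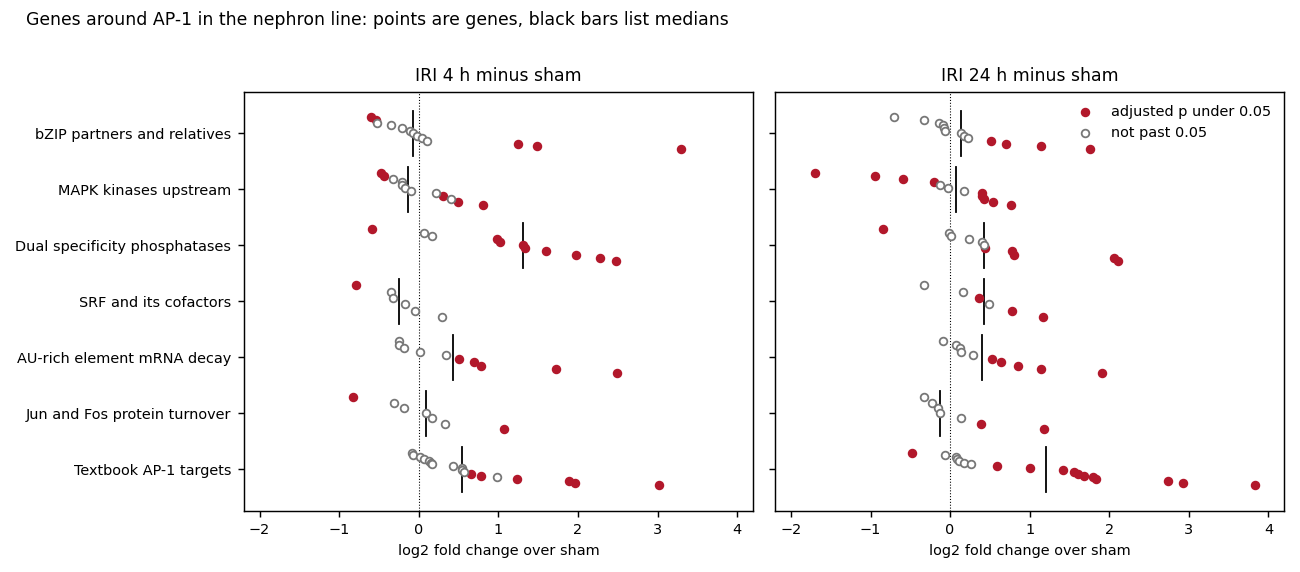
Log2 fold change over sham of genes around AP-1 in the nephron line, 4 h after IRI in the left panel and 24 h in the right panel. Points are genes, red where adjusted p is under 0.05 in limma, and black bars are list medians; both panels share their sham arrays. At 4 h the dual specificity phosphatases have the highest median (1.305), and at 24 h the AP-1 targets do (1.21). The lists were chosen with earlier results of these data known.

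The same lists were counted in the other lines at 24 h, where 19.3% of all genes were called higher and 20% lower in interstitial arrays, 21.5% and 21.7% in endothelial arrays and 13.1% and 14.8% in myeloid arrays. Of the 18 AP-1 targets, 15 were higher and 1 lower in interstitial arrays, 14 higher and 1 lower in endothelial arrays and 11 higher and 3 lower in myeloid arrays. Their medians were 1.89, 1.23 and 0.86, against 0.05, 0.07 and -0.02 over all genes. Of the 11 dual specificity phosphatases, 8 were higher in interstitial and in endothelial arrays and none lower, and 5 were higher and 2 lower in myeloid arrays. The bZIP partners were mixed, with 5 of 13 higher and 1 lower in interstitial, 6 higher and 4 lower in endothelial and 3 higher and 5 lower in myeloid arrays. So were the 12 MAPK kinases, with 4 higher and 4 lower in interstitial and in myeloid arrays and 3 higher and 4 lower in endothelial arrays. Of the 7 genes of protein turnover, 1 was higher and 2 lower in interstitial, 2 higher and 3 lower in endothelial and 1 higher and 1 lower in myeloid arrays. Of the 10 mRNA decay genes, 7 were higher and none lower in interstitial, 4 higher and 2 lower in endothelial and 2 higher and 1 lower in myeloid arrays. Of SRF and its 5 cofactors, 2 were higher in each of the 3 lines and 1 was lower in endothelial arrays. In these lines the neutrophil markers given above rose, and macrophage markers were lower for 3 of 4 in interstitial, 4 of 4 in endothelial and 1 of 4 in myeloid arrays. In background arrays 20.2% (wild-type) and 19% (L10a) of all genes were called higher at 24 h. Of the AP-1 targets, 14 were higher and 1 lower in wild-type, and 14 higher and none lower in L10a background arrays. Their medians were 1.54 and 1.05. Of the phosphatases, 9 were higher in wild-type, and 6 higher and 1 lower in L10a background arrays. Against wild-type background IRI, nephron IRI had 2 AP-1 targets higher (25.3% of all genes) and 7 lower (18.7%).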

How the data were processed

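The 57 arrays of 19 groups were measured on Affymetrix Mouse Gene 1.0 ST arrays. The deposited values are linear probe set intensities made by the authors, whose tools were RMA and Affymetrix Expression Console 1.3.1, per the submitters' processing notes. Their log2 was taken here, since log2 values had been planned for. Which arrays were normalized together is not given in the sources used here, and TRAP and total RNA arrays have different median intensities.

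Of 35556 probe sets, 21789 carry 1 gene symbol in the platform annotation, 1621 several and 12146 none. The first kind was kept, which gave 19938 genes. For 999 genes with several probe sets the one with the highest mean was taken. Genes above a log2 value of 5 in at least 3 arrays were tested.

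limma 3.58.1 (R 4.3.3) fitted 1 coefficient per group. Comparisons without background arrays used 45 arrays (19244 genes, 30 residual degrees of freedom, prior 3.06), and those with them used all 57 (19302 genes, 38 and 3.18). Benjamini-Hochberg adjustment ran over all genes tested in a comparison, with 0.05 as the threshold for a call. The error after ± is the SE of that fit. Dropped arrays were not imputed. Age could not be a covariate. The fit was tested on simulated data. Figures used Python 3.11.15 and matplotlib 3.10.9.

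The members and the gene lists were chosen with earlier results of these data known. Named genes were the 8 members, the 3 genes most like each over the 17 TRAP group means, and up to 3 called genes per direction of each list. Alternatives were quantile normalization, median centring, other filters, other sets of arrays in the fit, a replicate block and leaving out each array.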

Additional observations from a re-analysis of the deposited data

Results flagged for a closer look

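In groups of 4 arrays, an array whose gap to its nearest neighbour exceeds 0.829 of the group's range stands apart by Dixon's test, and chance gives about 1 in 20 such groups. In wild-type background IRI, replicate 1 stood low for Atf3 (ratio 0.921, 10.14 against 11.97 to 12.13) and for Fosb (ratio 0.856, 8.70 against 10.95 to 11.33). In L10a background IRI, replicate 2 stood high for Fosb (ratio 0.868, 8.98 against 8.21 to 8.31).

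The other results listed here are log2 differences between IRI responses that passed limma's test of the difference itself. The nephron response differed from the mean of the other 3 lines by -1.72 for Fos, -0.65 for Fosl2, 0.51 for Jun and 1.09 for Atf3. The interstitial response differed by -0.75 for Fos and 0.73 for Jun. The endothelial response differed by 1.39 for Fos, 2.07 for Fosb and 0.92 for Atf3. The myeloid response differed by 1.08 for Fos, -1.57 for Fosb, -1.23 for Fosl1, 0.59 for Fosl2, -0.99 for Jun and -2.62 for Atf3. The nephron response differed from that of total RNA by 1.28 for Fosl1. It differed from that of the wild-type background by -1.81 for Fos, -2.06 for Fosb, -0.55 for Fosl2, -1.30 for Jun, -0.71 for Junb, -1.68 for Jund and -1.34 for Atf3. The 4 response contrasts share arrays, since each line enters all of them. A low response in 1 line, such as that of Atf3 in the myeloid line, thus raises the differences of the others.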

How the results depend on the processing

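Over all comparisons and alternatives, 738 counts of members stayed within 1.5 times the main count and 58 did not. Of the single gene values, 4398 kept their side of the threshold, 84 lost a call, 70 gained one and none was reversed. A reversal was counted only where the main or the alternative value was called, and F test values have no direction. The counts for IRI against sham at 4 h and at 24 h in the nephron line, and for 24 h against 4 h, were among those that stayed. With only the groups compared in the fit, Jun was called lower in myeloid IRI (1 gene), 4 genes were higher in total RNA IRI, 1 lower in endothelial and 0 lower in myeloid mice without surgery, 2 interstitial and 6 endothelial responses were higher, and 0 nephron responses exceeded total RNA. Against wild-type background IRI that fit called 3 lower in nephron, 1 lower in interstitial, 2 higher in endothelial and 1 higher in myeloid arrays, and 3 nephron responses lower. Without total RNA arrays in the fit, a setting added after results were seen, 2 genes were lower in nephron sham than without surgery, 1 was higher in nephron and 1 lower in endothelial mice without surgery, and 3 interstitial and 6 endothelial responses were higher. Quantile normalization gave 1 higher in nephron mice without surgery, 2 interstitial responses higher and 0 lower, and 2 higher in endothelial against wild-type background IRI. Median centring gave 1 higher in nephron mice without surgery, 1 nephron response higher and 5 endothelial responses higher, and it moved the median of all genes by 0.112 in the last and by 0.127 in the L10a background. A stricter filter on low values gave 2 interstitial responses higher, and all 57 arrays in the fit gave 0 lower. Windows of 150 bases before the start held TATAAA in 1 gene. Leaving out each array in turn, the counts ranged from 0 to 1 lower in myeloid mice without surgery, 1 to 2 nephron, 1 to 2 interstitial, 3 to 5 endothelial and 1 to 2 myeloid responses higher, and 0 to 1 interstitial responses lower. Against total RNA 0 to 1 nephron responses were higher and 0 to 2 lower. Against wild-type background IRI the ranges were 0 to 1 higher in interstitial, 2 to 4 higher and 0 to 1 lower in endothelial arrays, and 3 to 7 nephron responses lower. The deviations of same-numbered IRI and sham arrays from their group means correlated between -0.24 and 0.171. Differently numbered arrays were not compared, so these values cannot show whether arrays were paired. The labels name no pairing, and the main fit used none. With the replicate block all 7 nephron genes at 24 h and all 8 at 4 h stayed called, and it changed no call of a single gene. The number of arrays, 2 in each background sham group, limits the precision.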
